A study of Mus musculus with 17 samples.

Results

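The genes that encode Mediator were examined as a group for RNA polymerase II (Pol II) occupancy in mouse embryonic fibroblasts with and without depletion of RPAP1. Members were the genes named Med followed by a number (with or without a final l), together with Cdk8, Cdk19 and Ccnc, and 33 of the 36172 genes in the deposited table met that rule. They comprise 7 head, 9 middle, 9 tail and 7 kinase module genes, and Med14, the scaffold that joins the modules.

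Mediator is a large coactivator complex that carries signals from DNA-bound activators to Pol II at promoters. Its head and middle modules contact Pol II and the general transcription factors, its tail module is the main landing site of activators, and its kinase module binds reversibly and phosphorylates components of the transcription machinery. RPAP1 is a Pol II-associated protein that has been placed at the interface of Mediator and Pol II. The measurements here are of Pol II on the genes that encode Mediator, not of the Mediator complex on chromatin.

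Chromatin came from primary embryonic fibroblasts of the C57Bl/6 background, harvested at day 3 after lentiviral delivery of a hairpin against Rpap1 (shRPAP1 #5) or of a non-targeting hairpin (SCR), under puromycin selection in both groups. Per the labels, chromatin of 3 fibroblast lines was pooled before immunoprecipitation, so each of the 4 libraries stands for 1 pool: SCR and shRPAP1 with an antibody to total Pol II (the N-terminus of RPB1, the largest subunit), and SCR and shRPAP1 with an antibody to Ser5P. Ser5P is RPB1 phosphorylated at serine 5 of the repeats in its tail, a form that is enriched where Pol II has just started transcription. The labels state that the aim was to measure changes of Pol II abundance on genes. For the shRPAP1 ChIP samples the description field says SCR, whereas title, treatment and hairpin all give the knockdown, and grouping followed those. With 1 library a group no difference between SCR and shRPAP1 has a replicate check, no test was made, and "higher" and "lower" compare these libraries only.

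Values are the deposited signal in 1 promoter window and 1 gene body window per gene. At promoters 1 read of 40 bases is worth about 29.6 and the lowest value, 0.72, corresponds to no read, so values are given with their read equivalents. Promoter windows of all genes held 129659 total Pol II reads in SCR and 71334 in shRPAP1, and 290746 and 156175 Ser5P reads. Olfactory and vomeronasal receptor genes, which are silent in fibroblasts, served as the background: from SCR to shRPAP1 their mean promoter signal went from 7.99 to 14.0 with total Pol II and from 6.71 to 10.1 with Ser5P, a log2 ratio of 0.81 and 0.59. Over gene bodies it went from 7.08 to 12.5 and from 5.75 to 10.0, a log2 ratio of 0.82 and 0.80. The background thus stood higher in the shRPAP1 libraries, while most genes above background in SCR or shRPAP1 stood lower. The part of this in the Mediator values was not tested beyond the other scalings. Of 10 fibroblast markers 8 were above background over the gene body with both antibodies in SCR or shRPAP1, among them Fn1 (1405 in SCR with total Pol II) and Vim (966), while Dcn (22.6) and Pdgfra (24.4) were low. Summed over the 10 markers the body signal went from 4666 in SCR to 1838 in shRPAP1 with total Pol II and from 7318 to 2584 with Ser5P, and the median marker from 324 to 137 and from 404 to 140, and the part of this in the Mediator values was not tested. None of the epithelial, endothelial, pluripotent, muscle and neural markers was above background with both antibodies, and of the 3 blood markers 1 was, Cd68 (259.78 and 108 for SCR and shRPAP1 with total Pol II), with Ptprc at 17.85 and Spi1 at 15.2 in SCR. Rpap1 itself, the targeted gene, had a total Pol II signal at its promoter of 211 (SCR) and 325 (shRPAP1), which is 7 and 11 reads, and a Ser5P signal of 886 and 541 (31 and 19 reads). The hairpin acts on the mRNA, so Pol II on Rpap1 does not check the depletion.

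Promoter sequences are shown for 4 members on which the results turn. Med15 had the highest Ser5P promoter signal of the members in SCR and Med21 the highest total Pol II signal, and Med6 and Med18 were the members whose total Pol II promoter reads went to 0 after depletion. The sequences are RefSeq's, on build GRCm38.p6, and run 5′ to 3′ on the gene's strand from 250 bases before to 50 bases after the start. Capitals mark matches to the motifs searched, on either strand: TATAAA (the TATA element), GGGCGG (core of the GC box, bound by SP family factors), CCAAT (the NF-Y element), CCGGAAG (core of many ETS family sites), GCGCATGC (core of the NRF1 site), CTCGCGAG (a palindrome common in CpG-rich promoters) and ATGGCGGC (from the YY1 motif). In these 4 windows no match overlaps another, and 2 matches of CCAAT adjoin in Med21. The Med15 window is chr16:17722898-17723197 (minus strand), that of Med21 chr6:146642329-146642628 (plus strand), that of Med6 chr12:81594959-81595258 (minus strand) and that of Med18 chr4:132463872-132464171 (minus strand).
Med15: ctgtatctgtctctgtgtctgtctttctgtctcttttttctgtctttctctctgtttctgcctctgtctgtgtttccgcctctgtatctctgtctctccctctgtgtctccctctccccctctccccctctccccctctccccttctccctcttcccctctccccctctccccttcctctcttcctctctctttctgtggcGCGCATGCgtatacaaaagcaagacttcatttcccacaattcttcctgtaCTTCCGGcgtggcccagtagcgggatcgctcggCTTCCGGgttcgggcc
Med21: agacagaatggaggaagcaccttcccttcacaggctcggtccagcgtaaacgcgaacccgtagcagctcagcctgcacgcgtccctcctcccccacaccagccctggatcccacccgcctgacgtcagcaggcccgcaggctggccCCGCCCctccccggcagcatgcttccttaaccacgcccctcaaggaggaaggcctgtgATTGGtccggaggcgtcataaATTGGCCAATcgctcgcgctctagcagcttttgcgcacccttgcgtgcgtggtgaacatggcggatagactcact
Med6: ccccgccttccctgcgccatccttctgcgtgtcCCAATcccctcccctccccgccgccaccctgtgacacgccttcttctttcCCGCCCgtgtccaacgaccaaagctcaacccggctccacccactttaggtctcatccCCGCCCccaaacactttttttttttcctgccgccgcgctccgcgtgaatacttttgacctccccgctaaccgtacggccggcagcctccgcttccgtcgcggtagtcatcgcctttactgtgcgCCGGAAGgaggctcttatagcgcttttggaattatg
Med18: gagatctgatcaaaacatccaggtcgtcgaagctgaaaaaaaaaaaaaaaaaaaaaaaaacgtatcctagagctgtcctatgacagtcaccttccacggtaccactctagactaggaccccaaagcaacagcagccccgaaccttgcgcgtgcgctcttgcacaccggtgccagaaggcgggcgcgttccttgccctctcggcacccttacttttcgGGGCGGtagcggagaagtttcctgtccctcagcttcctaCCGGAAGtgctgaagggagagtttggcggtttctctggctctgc

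The table of promoters matched 28 of the 33 members, and Med8, Med23, Med24, Med30 and Cdk19 had no entry. Of the windows printed, GC content was 55.7% in Med15, 63.3% in Med21, 61.0% in Med6 and 53.3% in Med18. The GC content of the members' windows had a median of 57.8%, against 52.7% over all 27025 promoters in the table. The number of CpG dinucleotides ranged from 4 in Med10 to 61 in Med13l with a median of 22, against 7 over all promoters. GGGCGG was in 18 of 28 members (64.3%) and in 35.9% of all promoters. CCGGAAG was in 7 (25% against 9.12%), and GCGCATGC was in 3 (10.7% against 2.80%), which were Med4, Med15 and Med17. CCAAT was in 11 (39.3% against 37.9%) and TATAAA in 3 (10.7% against 14.2%), which were Med7, Med16 and Med28. ATGGCGGC was in 1, Med4 (3.57% against 2.38%), and CTCGCGAG was in 0 of 28 (0.958% of all promoters). A match describes these letters in the window and does not show that a factor binds there. The promoter window of the deposited values was taken to run from 30 bases before to 300 bases after the start. This rests on gene body values of receptor genes, and the placement was not tested. With such a window the sequences and the measured window overlap only in part. For some members, Med12l, Med14 and Cdk8 among them, the start used by the promoter table lies inside the RefSeq gene, and which start the deposited values refer to is not known.

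In control fibroblasts Mediator genes carried well-occupied promoters. The median member ranked at percentile 85.5 of all 36172 genes by total Pol II promoter signal in SCR and at percentile 84.6 by Ser5P, and at percentiles 77.9 and 77.1 over the gene body. Med21, a subunit of the hinge in the middle module, held 751 with total Pol II and 1542 with Ser5P. Med15, the tail subunit that binds SREBP and SMAD activators, held 638 and 1694. Med1, the middle module subunit that binds nuclear receptors, held 489 and 1576. At the other end Med12l, a paralogue of Med12, was at 0.72 with both antibodies, which is no read (a floor of 3 reads would be 87.3), and Med13l held 29.6 and 54.8, which is 1 and 2 reads. Members therefore ranged from among the highest promoters of the table to none detectable at this depth. Ser5P promoter signal was above total Pol II signal in 32 of 33 members, with a median ratio of 2.47, but the scale of each antibody's library is not known to be the same, so only the order of members can be read across antibodies. That order was alike, with a Spearman correlation of 0.81 at promoters and 0.85 over gene bodies across 33 members, which share the input chromatin and the windows.

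Total Pol II at Mediator promoters was lower after depletion in 30 of 31 measured members (83.9% of all measured genes), and Ser5P in 31 of 32 (82.8%). A gene counted as measured when its signal exceeded, in at least 1 of the 2 libraries, the 95th percentile of 1760 receptor genes in that library. With total Pol II 25 of 31 members were at least 1.5-fold lower, against 69.2% of 14423 measured genes, and 0 were at least 1.5-fold higher, against 7.4%. The counting interval of the ratio lay below 0 on the log2 scale for 9 of 31 members, against 14.9%. With Ser5P 26 of 32 members were at least 1.5-fold lower, against 69.1% of 17013 measured genes, 0 were higher, against 11.2%, and 13 had an interval below 0, against 28%. The shares of members that were lower, 80.6% and 81.2%, were thus above but not far from those of all genes. The median log2 ratio of members was -1.45 with total Pol II (all genes -1.07, quartiles -1.92 and -0.41) and -1.18 with Ser5P (all genes -0.97, quartiles -1.54 and -0.41), so both medians lay between the quartiles of all genes. Of the measured members 9 passed with total Pol II through SCR alone and 2 with Ser5P (38.6% and 17.6% of measured genes), a route that favours lower ratios. Of the 22 members above background in both total Pol II libraries, 17 were at least 1.5-fold lower (61.9% of genes), with a median of -1.14 (all genes -0.82), and of the 30 with Ser5P 24 were (70.8%), with a median of -1.18 (-0.94). A filter at 2 times the background percentile in all 4 libraries left 14 members, 9 of them at least 1.5-fold lower with total Pol II, at a median of -0.80.

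Summed over the 33 promoters, total Pol II reads went from 324 to 128, a log2 ratio of -1.34 (95% Clopper-Pearson interval -1.65 to -1.04), while all promoters together stood at -0.86. Members held 0.250% of all promoter reads in SCR (0.223 to 0.279) and 0.179% in shRPAP1 (0.150 to 0.213). The Ser5P reads went from 777 to 364, a log2 ratio of -1.09 (-1.28 to -0.91) against -0.90 for all promoters, and the share from 0.267% (0.249 to 0.287) to 0.233% (0.210 to 0.258). The share intervals of SCR and shRPAP1 do not overlap with total Pol II and overlap with Ser5P. These intervals cover counting error only, not variation between cultures. The sums over all promoters also take in genes that were not measured, and receptor promoters stood higher in shRPAP1 (log2 ratio of 0.81 and 0.59). The median measured gene stood at -1.07 with total Pol II and -0.97 with Ser5P, inside the interval of the summed member reads in each case. The part of unmeasured genes in the shares was not tested. When the median ratio of all measured genes was set to 1, a total Pol II signal at least 1.5-fold lower was seen in 12 of 31 members (30.6% of all genes) and one at least 1.5-fold higher in 4 (27.1%), and with Ser5P the counts were 9 (24%) and 4 (24.2%) of 32.

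**Figure D1:**
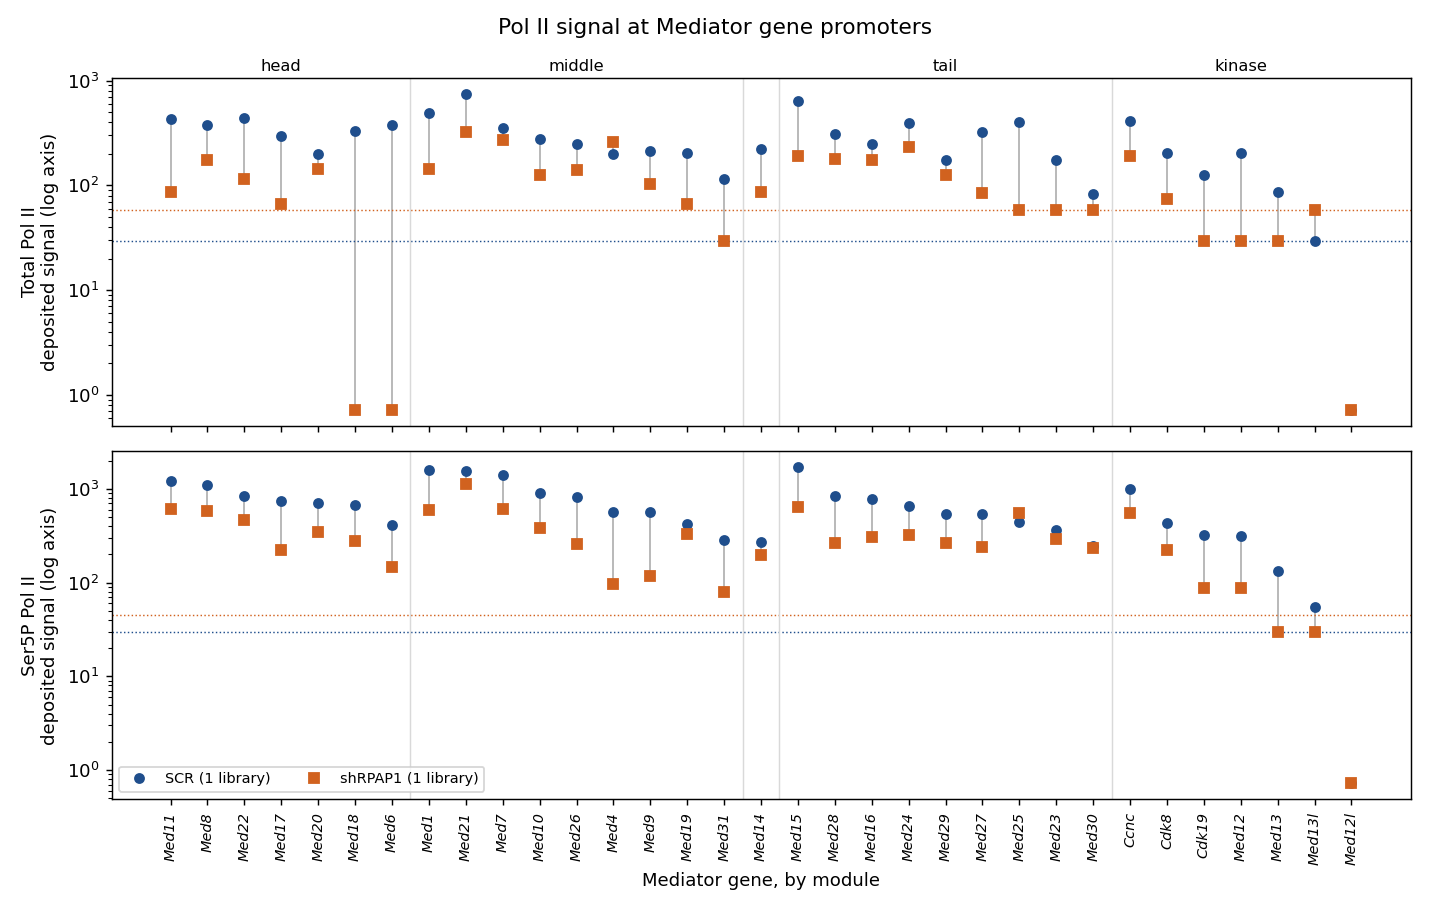
Deposited promoter signal (log axis) of the 33 Mediator genes by module, with total Pol II above and Ser5P below; circles are the SCR library, squares the shRPAP1 library and dotted lines the 95th percentile of receptor genes in each. With total Pol II only Med4 and Med13l stood higher after depletion, with Ser5P only Med25 did, and Med12l was at the floor in all 4 libraries.

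The head module, whose subunits contact Pol II and its initiation factors, stood lowest after depletion with total Pol II. Its 7 genes were measured with both antibodies and were all lower with both. Med11, which pairs with Med22 in the head, had the highest mean promoter signal of the module in SCR. Its total Pol II signal was 426 in SCR and 87.3 in shRPAP1 (15 and 3 reads), a log2 ratio of -2.28 (-4.75 to -0.50). Its Ser5P signal was 1215 and 604 (42 and 21 reads), a log2 ratio of -1.01 (-1.83 to -0.21). Both intervals lay below 0. Its partner Med22 held 442 and 116 (15 and 4 reads; -1.92, -3.96 to -0.26) and 839 and 460.1 (29 and 16 reads; -0.87, -1.84 to 0.07). Med17, the subunit around which the head is built, held 294 and 67.1 with total Pol II (10 and 2 reads), a log2 ratio of -2.12 (-5.55 to -0.09). With Ser5P it held 745 and 223 (26 and 8 reads), at -1.74 (-3.05 to -0.51), and it had the lowest mean ratio over both antibodies among the 22 members above background in all 4 promoter libraries.

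Med6 and Med18 lost every total Pol II promoter read. Med6, a conserved head subunit that faces the middle module, held a total Pol II signal of 376 in SCR (13 reads) and 0.72 in shRPAP1 (no read), at least 4.31-fold lower against a floor of 3 reads in the library, while the counting interval of the log2 ratio reaches up to -1.61, a smaller difference. Med18, which forms with Med20 the movable jaw of the head, held 333 (12 reads) and 0.72, at least 3.82-fold lower by the same floor and with an interval that reaches up to -1.47. Both kept Ser5P signal at the same promoters after depletion: Med6 held 414 and 145 (14 and 5 reads), a log2 ratio of -1.51 (-3.31 to 0.07), and Med18 held 667 and 275 (23 and 10 reads), at -1.28 (-2.44 to -0.07). An empty total Pol II window therefore stood beside a Ser5P signal well above that library's background percentile of 45.6. The jaw partner Med20 differed less with total Pol II, at 198 and 145 (7 and 5 reads; -0.45, -2.48 to 1.39), and held 708 and 349 with Ser5P (-1.02, -2.13 to 0.06). Med8, which tethers the jaw to the head, held 380.07 and 174 with total Pol II (-1.13, -2.80 to 0.38) and 1095 and 574 with Ser5P (-0.93, -1.79 to -0.11).

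The middle module, which links head to tail and touches the Pol II tail, was lower in 8 of 9 genes with total Pol II and in all 9 with Ser5P. Med21 kept the most signal of any Mediator promoter, with total Pol II at 751 and 323 (26 and 11 reads), a log2 ratio of -1.22 (-2.41 to -0.17). Its Ser5P signal was 1542 and 1127 (53 and 39 reads), a log2 ratio of -0.45 (-1.08 to 0.18). Its hinge partner Med7 showed the other order between antibodies, at 355 and 269 with total Pol II (12 and 9 reads; -0.40, -1.84 to 0.96) and 1409.95 and 609 with Ser5P (49 and 21 reads; -1.21, -2.03 to -0.46). The pair of hinge genes thus differed in which antibody showed the smaller ratio, within intervals that overlap. Med1 was lower with both antibodies beyond counting error. It held 489 and 145 with total Pol II (17 and 5 reads), a log2 ratio of -1.75 (-3.56 to -0.27), and 1576 and 590 with Ser5P (55 and 20 reads), at -1.42 (-2.28 to -0.70).

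Med26, which recruits elongation factors to Pol II, held 248 and 139.91 with total Pol II (9 and 5 reads; -0.82, -2.77 to 0.88) and 811 and 260.35 with Ser5P (28 and 9 reads; -1.64, -2.91 to -0.51). Med9, a small middle subunit, held 211 and 102 with total Pol II (-1.04, -3.03 to 1.17) and 568 and 116 with Ser5P (20 and 4 reads; -2.28, -4.33 to -0.74). Both were lower beyond counting error with Ser5P alone. Med31, which forms a knob with Med7 and had the lowest SCR promoter level of the module, held 116 and 29.6 with total Pol II (4 and 1 reads) and 287 and 80.05 with Ser5P (10 and 3 reads), and neither interval excluded 0. Med19, part of the hook of the middle module, held 203 and 67.1 (7 and 2 reads) and 424 and 326 (15 and 11 reads). Med4, partner of Med9, was named after its values were seen, because its antibodies went opposite ways. Its total Pol II signal was 199.77 and 257 (7 and 9 reads; 0.36, -1.23 to 2.02), the only measured member with more total Pol II after depletion, and its Ser5P signal was 572 and 95.9 (20 and 3 reads), a log2 ratio of -2.57 (-5.13 to -0.98), the lowest of all members with that antibody. Med10, the remaining gene of the module, was lower with both antibodies, at -1.16 with total Pol II and -1.25 with Ser5P.

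Med14, the scaffold, held 222 and 87.3 with total Pol II (8 and 3 reads; -1.34, -3.96 to 0.64) and 269 and 198 with Ser5P (9 and 7 reads; -0.44, -2.02 to 1.23). Neither difference exceeded counting error.

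The tail module, where activators bind, was lower in 9 of 9 genes with total Pol II and in 8 of 9 with Ser5P. Med15 led it, with a total Pol II signal of 638 in SCR and 189 in shRPAP1 (22 and 7 reads), a log2 ratio of -1.75 (-3.12 to -0.37). Its Ser5P signal was 1694 and 642 (59 and 22 reads), a log2 ratio of -1.40 (-2.20 to -0.69). Both intervals lay below 0, and in shRPAP1 its Ser5P promoter still ranked above every Mediator promoter but that of Med21. Med23, a target of the adenoviral activator E1A and of the ETS factor ELK1, held 174 and 58.4 with total Pol II (6 and 2 reads; -1.56, -4.93 to 0.90) and 363 and 289 with Ser5P (13 and 10 reads; -0.33, -1.73 to 0.93). Med29 held 174 and 125 (6 and 4 reads) and 539 and 265 (19 and 9 reads), and Med30, with the lowest SCR promoter level of the module, held 82.9 and 58.4 (3 and 2 reads) and 247 and 232 (9 and 8 reads). For these 3 tail genes no interval excluded 0. Med25, which binds the viral activator VP16, was named after its values were seen as the opposite of Med4. Its total Pol II signal was 407 and 58.4 (14 and 2 reads), a log2 ratio of -2.78 (-5.99 to -0.69), and its Ser5P signal was 446 and 550.3 (15 and 19 reads), at 0.30 (-0.71 to 1.42). The other tail genes, Med16, Med24, Med27 and Med28, were lower with both antibodies, between -1.93 (Med27) and -0.51 (Med16) with total Pol II and between -1.66 (Med28) and -1.03 (Med24) with Ser5P.

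The kinase module holds the catalytic pair Cdk8 and Cdk19, their cyclin Ccnc, and the paralogue pairs Med12 with Med12l and Med13 with Med13l. Ccnc had the highest promoter signal of the module, at 408 and 193 with total Pol II (14 and 7 reads; -1.08, -2.55 to 0.40) and 987 and 547 with Ser5P (34 and 19 reads; -0.85, -1.73 to 0.01). Cdk8 held 203 and 73.6 with total Pol II (7 and 3 reads; -1.45, -3.81 to 0.91) and 436 and 219.97 with Ser5P (15 and 8 reads; -0.98, -2.35 to 0.42). Its paralogue Cdk19 held less in SCR and after depletion, at 127 and 29.6 (4 and 1 reads; -2.08, -7.62 to 1.34) and 319 and 87.3 (11 and 3 reads; -1.86, -4.36 to 0.05). Both kinases were lower with both antibodies, with intervals that reach 0 or beyond and overlap each other.

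Med12, which activates the kinase, held 203 and 29.6 with total Pol II (7 and 1 reads), a log2 ratio of -2.75 (-8.30 to 0.15). With Ser5P it held 314 and 87.3 (11 and 3 reads; -1.84, -4.36 to 0.05), while Med12l had no promoter read in any library. Med13, which docks the kinase module on the core, held 87.3 and 29.6 (3 and 1 reads; -1.54, -7.30 to 2.05) and 131 and 29.6 (5 and 1 reads; -2.12, -7.89 to 0.84). Med13l held 29.6 and 58.4 with total Pol II (1 and 2 reads), not above the background percentile in either library, and 54.8 and 29.6 with Ser5P (2 and 1 reads; -0.87, -6.88 to 3.26). For no gene of this module did the promoter interval exclude 0 with either antibody at depths of at most 34 reads.

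Set side by side, the modules differed in order between the antibodies. Median log2 ratios with total Pol II were -2.12 in the head (-1.93 with Med6 and Med18 at their bound), -1.54 in the kinase module (5 of 7 genes measured), -1.34 for Med14, -1.16 in the middle and -0.78 in the tail. With Ser5P it was -1.42 in the middle, -1.41 in the kinase module (6 of 7 measured), -1.03 in the tail, -1.02 in the head and -0.44 for Med14. The head thus stood lowest of the modules with total Pol II and not with Ser5P. In an older assignment, with Med19, Med27, Med28, Med29 and Med30 in the head, the head stood at -1.75 and the tail at -1.56 with total Pol II, so the place of the tail depends on the assignment. At least 1.5-fold lower with total Pol II were 6 of 7 head, 7 of 9 middle, 6 of 9 tail and 5 of 5 kinase genes. With Ser5P they were 7 of 7, 7 of 9, 6 of 9 and 6 of 6. Over all measured genes the shares were 69.2% and 69.1%. With total Pol II Med6, Med18, Med31, Med23, Med25, Med30, Med12, Med13 and Cdk19 passed the filter through SCR alone, a route that favours lower ratios. Med13 and Med13l did so with Ser5P. Members are not replicates, so the modules were not tested against each other.

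Summed reads, in which well-occupied promoters weigh more, kept the head lowest with total Pol II and placed the tail below the middle. Head promoters went from 85 to 20 total Pol II reads, a log2 ratio of -2.09 (-2.87 to -1.37), and from 0.0656% (0.0524 to 0.0811) to 0.0280% (0.0171 to 0.0433) of all promoter reads. Without Med6 and Med18, left out after their values were seen, they went from 60 to 20 reads, at -1.58 (-2.39 to -0.83). The middle went from 99 to 50 reads (-0.99, -1.51 to -0.48), the tail from 96 to 40 (-1.26, -1.83 to -0.72) and the kinase module from 36 to 15 (-1.26, -2.24 to -0.36). Only the head interval lay wholly below the -0.86 of all promoters, measured or not, and without Med6 and Med18 it did not. With Ser5P the head went from 196 to 92 reads (-1.09), the middle from 281 to 123 (-1.19), the tail from 213 to 107 (-0.99) and the kinase module from 78 to 35 (-1.16), within a narrow range.

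**Figure D2:**
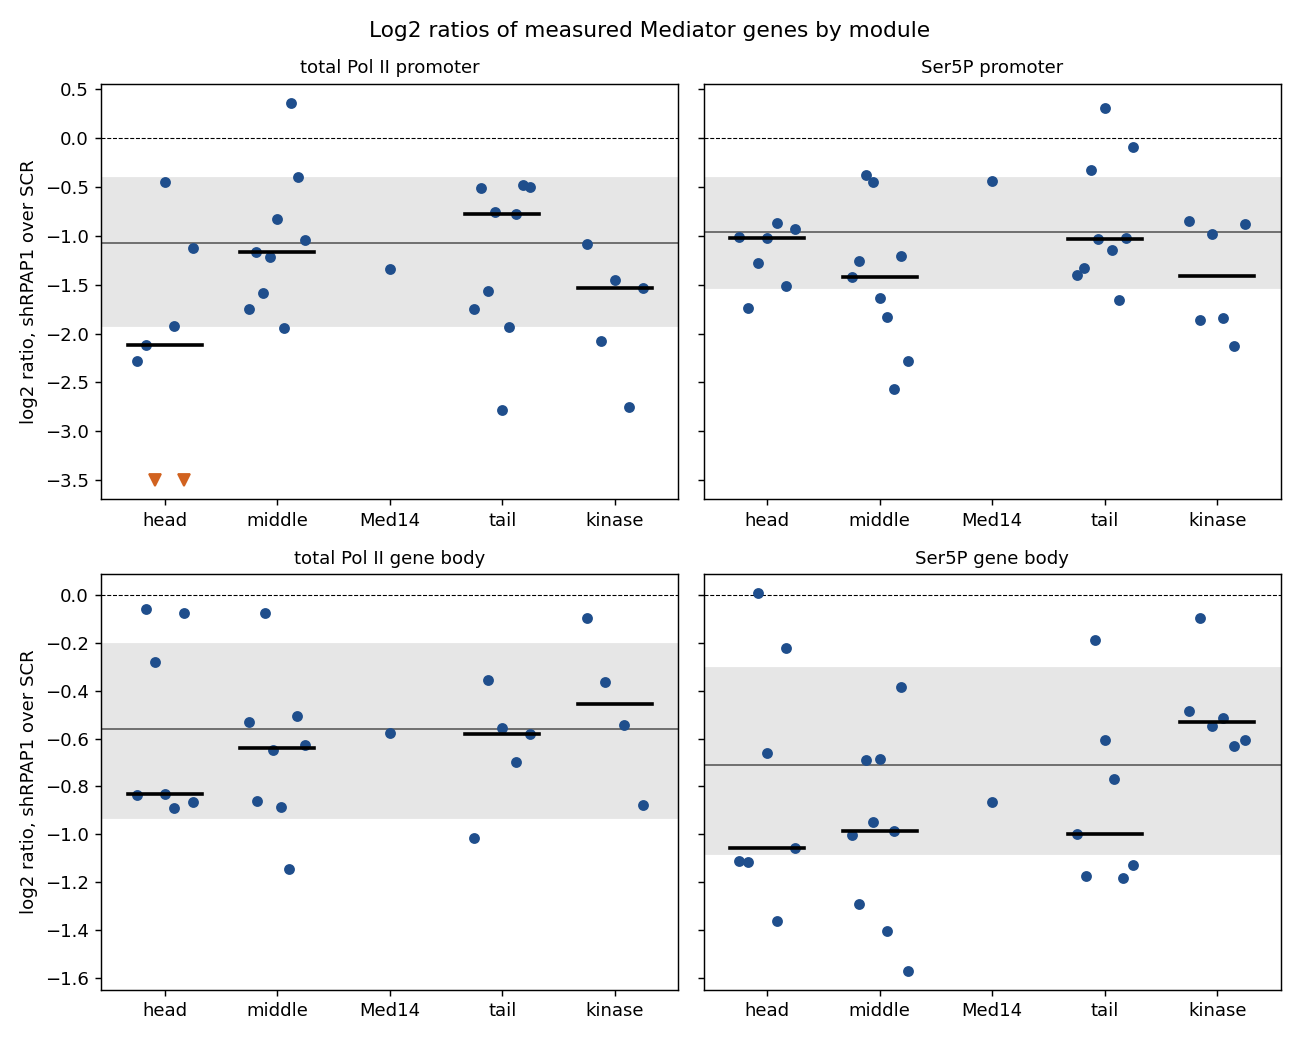
Log2 ratio of shRPAP1 over SCR for each measured Mediator gene by module (points), with module medians (black bars), the median of all measured genes (grey line) and their quartiles (grey band); triangles mark Med6 and Med18, which had no total Pol II promoter read in shRPAP1 and are drawn at the axis limit. The head median lies below the band at total Pol II promoters, and every other module median with at least 2 genes lies within the band in each panel.

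Over gene bodies, which give longer windows and more reads, the differences in deposited signal were smaller. With the mean receptor background subtracted, member medians with total Pol II were -1.70 at promoters and -1.09 over bodies. With Ser5P they were -1.25 and -1.21, so there the 2 windows were nearly alike. With total Pol II 25 members were measured and all were lower (83% of genes), 12 of them at least 1.5-fold (47.7% of 13850 genes), with 0 higher (7.9%) and 14 with an interval below 0 (51.6% of the 10916 genes with a length). With Ser5P 29 of 30 were lower (84.1% of genes), 22 of them at least 1.5-fold (58.5% of 17251 genes), with 0 higher (8.78%) and 25 with an interval below 0 (60.2% of 13761). The share of members 1.5-fold lower was 48% with total Pol II, near that of all genes, and 73.3% with Ser5P. Here 14 of 25 and 11 of 30 members passed the filter through SCR alone (49.2% and 40.1% of genes). Of those above background in both libraries 4 of 11 and 13 of 19 were at least 1.5-fold lower (51.1% and 65.1% of genes), with medians of -0.53 and -0.69 (all genes -0.60 and -0.78). Median log2 ratios were -0.58 (all genes -0.56, quartiles -0.93 and -0.20) and -0.82 (all genes -0.71, quartiles -1.08 and -0.30). With the median ratio of all genes set to 1, total Pol II bodies were at least 1.5-fold lower for 1 member (Med4; 15.9% of genes) and higher for 0 (15.1%), and Ser5P bodies lower for 3 (16%), which were Med9, Med22 and Med31, and higher for 2 (18.8%), which were Med18 and Cdk19.

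Med31 had the lowest mean ratio over both antibodies among the 11 members above background in all 4 body libraries. Its total Pol II body signal was 85.5 and 46.0 (32 and 17 reads; -0.89, -1.85 to -0.02) and its Ser5P signal 206 and 77.5 (77 and 29 reads; -1.40, -2.08 to -0.78). Med11, the shortest member at 1815 bases, held 113 and 63.3 (-0.83, -2.13 to 0.34) and 205 and 94.9 (-1.11, -2.12 to -0.22). These short genes had the highest Ser5P body levels of the group in SCR. Med8 held 69.8 and 38.2 with total Pol II (-0.86, -1.64 to -0.15) and 104 and 49.8 with Ser5P (-1.06, -1.69 to -0.42). Med19 held 111 and 60.8 (-0.86, -1.34 to -0.40) and 104 and 64.1 (-0.69, -1.17 to -0.24), and it overlaps Tmx2 and Zdhhc5 in RefSeq, whose ChIP signal cannot be separated from its own. Med15, over a body of 71740 bases, held 69.0 and 33.9 (518 and 255 reads; -1.02, -1.24 to -0.80) and 87.3 and 43.6 (655 and 327 reads; -1.0, -1.20 to -0.81), among the best counted values of the group.

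Several bodies differed little. Med6 held a total Pol II body signal of 42.3 and 40.2 (-0.07, -0.51 to 0.35) and a Ser5P signal of 47.8 and 41.0 (-0.22, -0.64 to 0.20), beside its empty total Pol II promoter in shRPAP1. Med18 held 30.8 and 25.4 (-0.28, -1.48 to 0.85) and 38.75 and 39.0 (0.01, -0.97 to 0.97), the only measured body that was not lower with Ser5P. For these 2 genes the body interval included 0 with both antibodies while the promoter was lower. Med21 held 68.5 and 65.1 with total Pol II (-0.07, -0.65 to 0.49) but 96.2 and 49.6 with Ser5P (-0.95, -1.55 to -0.40), and Med17 39.2 and 37.7 (-0.06, -0.53 to 0.42) but 76.1 and 34.9 (-1.12, -1.54 to -0.70). In both the Ser5P interval lay below 0 and the total Pol II interval did not. Med7 held 128 and 90.3 (-0.51, -1.05 to 0.02) and 119 and 91.2 (-0.38, -0.93 to 0.16), and Ccnc 42.3 and 39.55 (-0.10, -0.45 to 0.26) and 46.8 and 33.4 (-0.48, -0.85 to -0.13). Both hinge genes and the cyclin thus kept most of their total Pol II body signal.

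The long genes gave the tightest ratios. Med1 held 56.0 and 38.7 with total Pol II (240 and 166 reads; -0.53, -0.83 to -0.24) and 73.3 and 36.4 with Ser5P (314 and 156 reads; -1.0, -1.30 to -0.73). Med26 held 52.0 and 33.1 (292 and 186 reads; -0.65, -0.92 to -0.38) and 63.2 and 39.2 (355 and 220 reads; -0.69, -0.94 to -0.44), and Med14 held 51.97 and 34.7 (475 and 317 reads; -0.58, -0.79 to -0.38) and 51.9 and 28.3 (474 and 259 reads; -0.87, -1.10 to -0.65). All 3 were lower with both antibodies beyond counting error. Med23 held 36.0 and 28.1 (-0.35, -0.69 to -0.01) and 37.9 and 33.3 (-0.19, -0.51 to 0.14), lower beyond counting error with total Pol II alone.

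Among the paralogues the counting intervals were narrower over bodies than at promoters. Med13 and Med13l, hard to see at their promoters, were among the most covered bodies of the group. Med13 held 89.95 and 61.6 with total Pol II (853 and 584 reads; -0.54, -0.70 to -0.39) and 79.5 and 51.2 with Ser5P (753 and 485 reads; -0.63, -0.80 to -0.47). Med13l held 60.97 and 33.0 (1312 and 710 reads; -0.88, -1.02 to -0.75) and 54.9 and 36.0 (1181 and 774 reads; -0.60, -0.74 to -0.48). With total Pol II the intervals of Med13 and Med13l do not overlap, and with Ser5P they do. Cdk8 held 46.5 and 36.0 (350 and 272 reads; -0.36, -0.60 to -0.13) and 50.8 and 34.7 (383 and 262 reads; -0.55, -0.78 to -0.32). Cdk19 held 22.6 and 24.0 (319 and 338 reads; 0.08, -0.14 to 0.31), not above background in either library, and 20.8 and 19.4 with Ser5P (293 and 274 reads; -0.09, -0.34 to 0.15), just above the SCR background of 20.3. Cdk8 was lower beyond counting error with both antibodies and Cdk19 with neither, although their intervals overlap at the edges. Cdk19 lay near background, and receptor gene bodies stood at a log2 ratio of 0.82 with total Pol II and 0.80 with Ser5P. The part of background in its ratios was not tested.

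Med12 held 23.9 and 14.8 with total Pol II, not above background in either library, and 31.3 and 21.8 with Ser5P (81 and 56 reads; -0.51, -1.05 to -0.02). Med12l held 14.3 and 18.4 (470 and 603 reads; 0.35, 0.18 to 0.54) and 11.96 and 16.1 (393 and 528 reads; 0.42, 0.23 to 0.62), below the background percentile in all 4 libraries. Its ratios were thus above 0 and smaller than the 0.82 and 0.80 of the receptor genes.

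**Figure D3:**
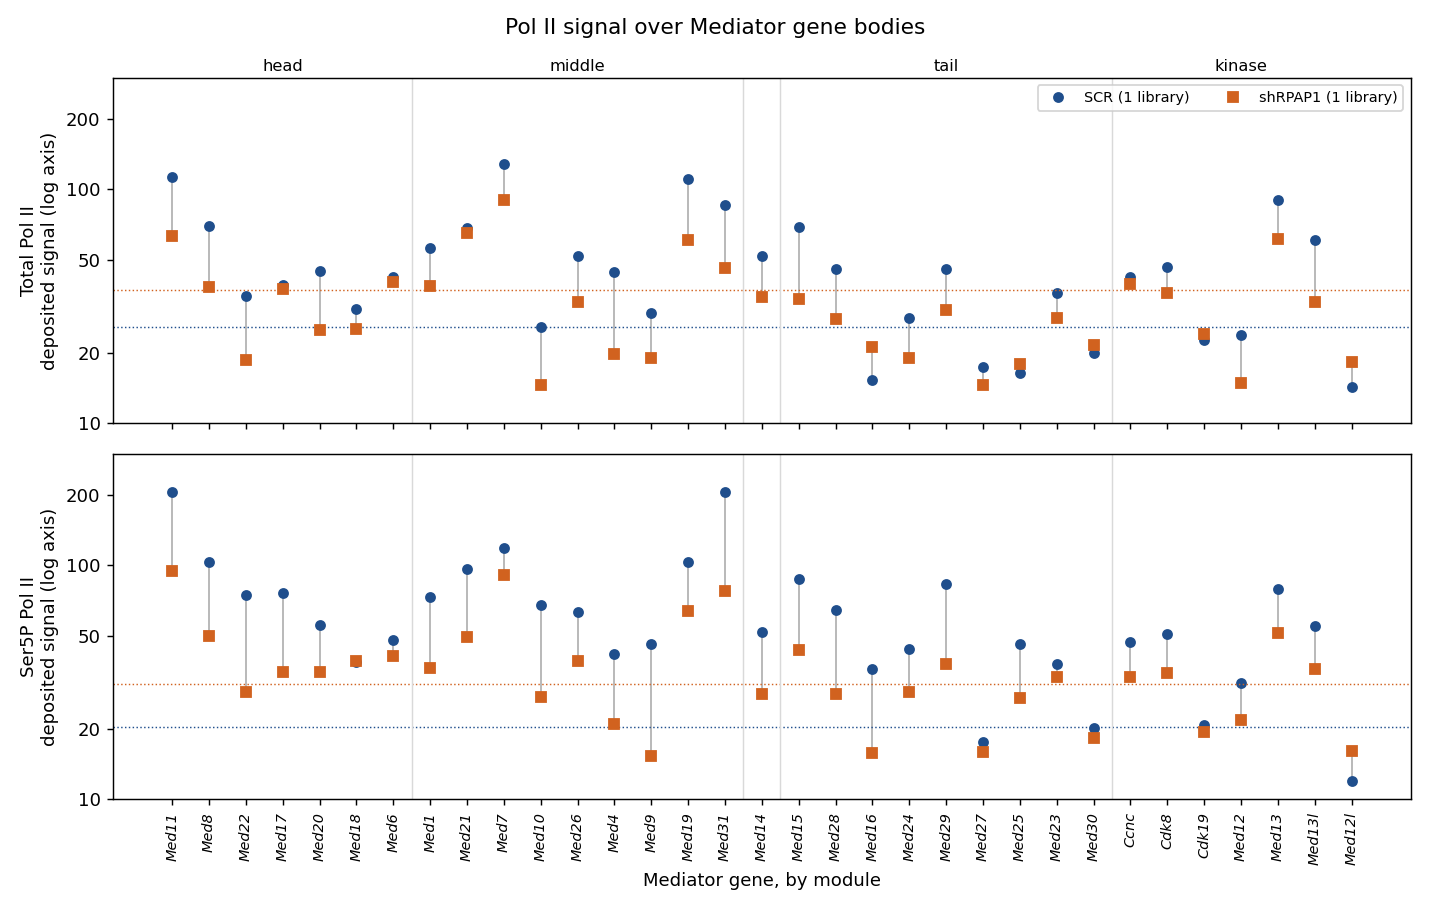
Deposited gene body signal (log axis) of the 33 Mediator genes in the same order as at promoters, with total Pol II above and Ser5P below; circles are SCR, squares shRPAP1 and dotted lines the 95th percentile of receptor genes in each library. With total Pol II Med16, Med25, Med30, Cdk19 and Med12l stood higher after depletion, none of them above background in either library.

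By module, the median log2 ratio over total Pol II bodies was -0.83 in the head, -0.64 in the middle (8 of 9 measured), -0.58 in the tail (5 of 9), -0.58 for Med14 and -0.45 in the kinase module (4 of 7). Over Ser5P bodies it was -1.06 in the head, -1.0 in the tail (7 of 9), -0.99 in the middle, -0.87 for Med14 and -0.53 in the kinase module (6 of 7). The kinase module stood nearest to 0 with both antibodies, although with total Pol II and no filter the tail (-0.35) and the kinase module (-0.36) were alike. Its measured genes at least 1.5-fold lower were 1 of 4 and 2 of 6 (47.7% and 58.5% of all measured genes). The counts were 4 of 7 and 5 of 7 in the head, 5 of 8 and 8 of 9 in the middle. In the tail they were 2 of 5 and 6 of 7. Of the 5 longest members 4 are kinase module genes (Med12l, Med13l, Cdk19 and Med13). Over all 33 members, measured or not, the body ratio had a Spearman correlation with gene length of 0.33 with total Pol II and 0.50 with Ser5P. Among the long genes in it, Med12l and Med27 were not above background with either antibody, nor was Cdk19 with total Pol II. The part of gene length in the module order was not tested.

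Within genes the promoter ratio was below the body ratio in 20 of 24 members measured in both windows with total Pol II and in 21 of 30 with Ser5P, against 68.3% and 61.2% of all genes measured in both. These are deposited signals with no background subtracted, and body levels lie nearer the background than promoter levels. The part of background in this contrast was not tested gene by gene. With background subtracted, the Ser5P medians of members were -1.25 at promoters and -1.21 over bodies. The ratio of promoter to body signal had a median over the 33 members of 5.61 (SCR) and 3.25 (shRPAP1) for total Pol II, and of 11.8 and 7.05 for Ser5P. Promoter signal lay below body signal for 3 members in SCR with total Pol II (Med12l, Med13 and Med13l) and for 2 with Ser5P (Med12l and Med13l). Over the members measured in both windows the medians were 5.14 (SCR) and 3.92 (shRPAP1) with total Pol II (24 genes). With Ser5P they were 11.5 and 7.01 (30 genes). Over all genes measured in both windows the median ratio also stood lower in shRPAP1, at 3.50 and 2.50 with total Pol II (10284 genes) and 6.13 and 5.35 with Ser5P (13661 genes).

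The antibodies were compared on the same genes. At promoters 29 of 31 members measured with both were lower with both (77.3% of all genes so measured). At least 1.5-fold lower with both were 20 (53.5%), and 5 had both intervals below 0 (10.2%), which were Med11, Med17, Med18, Med1 and Med15. Among members the sizes of the promoter ratios showed no common order, with a Spearman correlation of 0.05 across 31 members. Measured members held a median of 10 total Pol II and 21.5 Ser5P promoter reads in SCR. The part of low counts in this was not tested. Over bodies 24 of 25 were lower with both (80.8%), 12 were at least 1.5-fold lower with both (39.8%) and 13 had both intervals below 0 (49.7%). There the Spearman correlation was 0.49 across 25 members, which share chromatin, windows and gene length.

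**Figure D4:**
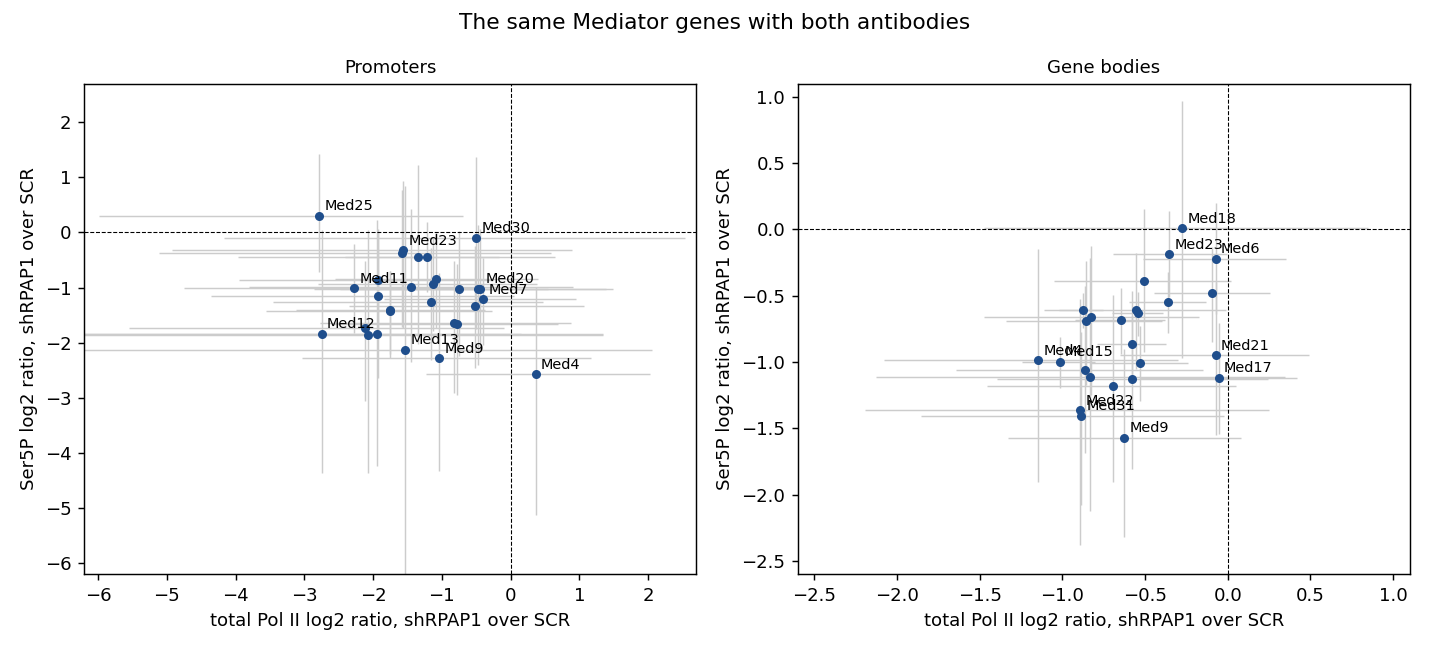
Log2 ratio of shRPAP1 over SCR with total Pol II (x axis) against Ser5P (y axis) for members measured with both, at promoters (left, 29 genes with a finite interval, so without Med6 and Med18) and gene bodies (right, 25 genes); grey bars are 95% counting intervals, cut at the axis limits, and the 3 lowest and 3 highest genes on each axis are named. Most points lie in the lower left area, Med4 and Med25 lie outside it at promoters, and Med18 does over bodies.

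Genes of the complexes that work with Mediator stood in a similar range. The 13 Pol II subunit genes had median log2 ratios of -1.07 at total Pol II promoters and -0.80 at Ser5P promoters. At least 1.5-fold lower were 8 and 9 of these 13 genes (69.2% and 69.1% of all measured genes). Polr2l, a small shared subunit, had the lowest mean of the 4 log2 ratios (both antibodies, promoter and body) among them and Polr2g, part of the stalk, the highest. Polr2l stood at -1.46 and -0.30 at promoters with total Pol II and Ser5P and at -1.12 and -1.76 over the body, where its Ser5P signal was 298 in SCR and 87.7 in shRPAP1. Polr2g stood at -1.58 and 0.24 at promoters and at 0.08 and -0.80 over the body, with a Ser5P body signal of 67.1 and 38.5, so their order at total Pol II promoters was the opposite one. TFIID genes stood at -1.09 with both antibodies, with 10 and 10 of 13 lower, and the other general transcription factor genes at -1.07 and -0.94, with 9 and 10 of 12 lower. TFIIH kinase and P-TEFb genes stood at -0.59 and -1.23 (3 and 6 of 6 lower), Integrator genes at -0.67 and -0.96 (7 and 9 of 11 lower), and genes of cohesin and its loader, which bind with Mediator at enhancers, at -1.35 and -0.74 (5 and 4 of 6 lower). At total Pol II promoters the -1.45 of Mediator genes was the lowest of these medians, and at Ser5P promoters the -1.23 of the TFIIH kinase and P-TEFb list lay below the -1.18 of Mediator.

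Over bodies the same lists had total Pol II medians of -0.52 (Pol II subunits, 12 measured), -0.72 (TFIID, 12), -0.41 (other general factors, 12), -0.75 (TFIIH kinase and P-TEFb, 6), -0.39 (Integrator, 8) and -0.34 (cohesin and loader, 7), beside -0.58 for Mediator. With Ser5P they stood at -0.91, -0.83, -0.60, -0.95, -0.65 and -0.45, beside -0.82 for Mediator. All 13 Pol II subunit bodies were at least 1.5-fold lower with Ser5P (58.5% of all measured genes). Mediator thus lay inside the range of its partner complexes over bodies. Single genes of these lists varied too. Cdk9, the kinase of P-TEFb, held a Ser5P promoter signal of 311 and 44.0 (11 and 1 reads), and Ints5, of Integrator, held a total Pol II promoter signal of 585 and 601 (20 and 21 reads). Nipbl, the cohesin loader, held 116 and 29.6 with total Pol II (4 and 1 reads), and Stag2, of cohesin, held 29.6 and 87.3 (1 and 3 reads).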

How the data were processed

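Pol II ChIP-seq was analysed in 4 libraries of fibroblasts (SCR and shRPAP1, total Pol II and Ser5P); the input chromatin and the RNA-seq samples were not analysed here. The deposited table holds a signal in 8 columns, 1 promoter and 1 gene body column for each library, per the file headers. The submitters' processing notes name build GRCm38 (mm10) and the tools MACS2 2.0.10.20130712, bedtools 2.23.0, SAMtools 0.1.16 and FastQC. For the aligner, read filters, windows, input correction and scaling, the answer was not given in the sources used here. At promoters every one of the 144688 values lay within 0.029 signal units of a whole multiple of 0.721 (the step), and read equivalents rest on reads of 40 bases and are approximate. Windows were inferred from the values: for 180 of 273 receptor genes at one body value (65.9%), that value times the gene length less 300 bases was within 5% of the promoter step times 330.

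Of 36230 rows 58 exact repeats were dropped. Log2 ratios of shRPAP1 over SCR used a pseudocount equal to the 5th percentile of the values of a region (0.72 at promoters, 0.33 over bodies), so they understate the change of low genes. Intervals of ratios are 95% Clopper-Pearson intervals, computed on read equivalents, and cover counting error only, since reads carry no molecular identifiers. Lengths, overlaps and promoters came from RefSeq on GRCm38.p6. Scripts ran in Python 3.11.15 with numpy 2.4.6, pandas 2.3.3, scipy 1.17.1 and matplotlib 3.10.9 and were tested on simulated data. The members, modules, related lists and tests were chosen with earlier results of these data known. Genes named were the paralogue pairs, the highest and lowest SCR promoter of each module, the 4 lowest and 4 highest mean ratios per region among members above background in all 4 libraries, members at the floor, and Med1, Med23, Med26 and Rpap1, with 1 lowest and 1 highest gene per related list. Alternatives were 3 other scalings, smaller and larger pseudocounts, no filter, a stricter filter and an older module assignment.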

Additional observations from a re-analysis of the deposited data

How the results depend on the processing

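With 1 library a group no library could be left out, and depth limits the promoter values, where members held at most 59 reads. No paired analysis was possible because each group is 1 library of pooled chromatin and the table carries no replicate numbers. With the median ratio of measured genes set to 1 (log2 of 0), medians of members moved to -0.38 (total Pol II promoter), -0.021 (total Pol II gene body), -0.21 (Ser5P promoter) and -0.11 (Ser5P gene body), and counts at least 1.5-fold lower to 12, 1, 9 and 3. With the receptor background set equal, the medians moved the other way, to -2.25, -1.38, -1.77 and -1.60, and the total Pol II gene body count to 25. With that background subtracted, gene body medians were -1.09 (total Pol II) and -1.21 (Ser5P), and the total Pol II gene body count was 21. Promoter medians were then -1.70 (total Pol II) and -1.25 (Ser5P). The stricter filter (2 times the background percentile in all 4 libraries) left 14 members at promoters, 9 of them lower with total Pol II (median -0.80) and 13 with Ser5P, and 1 member over bodies, Med7, with 0 lower (Ser5P ratio -0.38). Under the median scaling 42 of 118 single ratios and 3 of 16 module medians changed sign. Those whose reported counting interval excluded 0 (genes) or that were past 1.5-fold (modules) were the tail module at total Pol II promoters, 0.29; Med8 at Ser5P promoters, 0.035; over total Pol II bodies Cdk8 0.19, Med1 0.030, Med13 0.014, Med23 0.20 and Med24 0.0029; and over Ser5P bodies Ccnc 0.23, Cdk8 0.16, Med12 0.20, Med13 0.080, Med13l 0.11, Med19 0.021, Med20 0.050, Med24 0.11 and Med26 0.026. The kinase module over bodies, reported nearer 0, moved to 0.10 and 0.18. This setting shifts every gene by the same amount. Setting the background equal changed the sign of 3 single ratios and subtracting it of 1. Without a filter the Ser5P promoter median of the kinase module was -0.98 and the Ser5P gene body median of the tail -0.77. Members above background in both libraries, an alternative chosen after the data were seen, were at least 1.5-fold lower over bodies in 4 of 11 (total Pol II) and 13 of 19 (Ser5P). Under the older module assignment the total Pol II promoter medians of head and tail were -1.75 and -1.56. With pseudocounts 10 times smaller and larger, promoter medians were -1.46 and -1.36 (total Pol II) and -1.18 and -1.17 (Ser5P). Gene body medians were -0.58 and -0.54 (total Pol II) and -0.82 and -0.76 (Ser5P). Counts at least 1.5-fold lower were 25 and 25 (total Pol II promoter), 12 and 11 (total Pol II gene body), 26 and 26 (Ser5P promoter) and 22 and 20 (Ser5P gene body). The 14 members with no overlapping gene, an alternative chosen after the data were seen, had medians of -1.45, -0.64, -1.23 and -1.05.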
